A study of Mus musculus with 8 samples.

Results

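The NR4A receptors Nr4a1, Nr4a2 and Nr4a3 are the 3 members of a family of orphan nuclear receptors, chosen here by gene symbol. They are 3 of the 18846 genes listed in the deposited tables, and all 3 were among the 15361 genes that passed the filter on low counts. Messenger RNA was sequenced from 8 adrenal glands of 129SVEV mice, each from a different animal. Of these, 4 were wild type and 4 were Siah1a -/-, which lack a ubiquitin ligase of the SIAH family. In each genotype, 2 animals received no agent and 2 were injected intraperitoneally with adrenocorticotropic hormone (ACTH) at 100 µg/kg and sampled after 1 hour. Both sexes are labelled in every group, with 1 animal each. The ages of the animals and the design of the Siah1a allele are not given in the sources used here. No group was injected with vehicle, so ACTH and the injection itself cannot be told apart.

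NR4A receptors bind DNA as transcription factors and are thought to act without a classical hormone ligand, so that their activity follows largely from how much of each protein is made. Their genes are immediate early genes, transcribed within minutes of a rise in cyclic AMP or calcium. In the adrenal cortex they are induced by ACTH and by angiotensin II, and they bind the promoters of steroidogenic enzyme genes, including that of aldosterone synthase.

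Several libraries stood apart from their labels or from the rest. Siah1a, the targeted gene, was measured at 26.3, 26.1, 33.1 and 32.4 CPM (counts scaled so that libraries of different depth can be compared) in the 4 wild-type libraries and at 25.2, 21.2, 19.0 and 17.4 CPM in the 4 knockout libraries. These counts cover the whole gene and do not resolve which exons the allele lacks. In untreated wild type, the library labelled male had the X-inactivation RNA Xist at 388 CPM and the Y-linked gene Ddx3y at 3.06 CPM, against 311 to 376 CPM of Ddx3y in the other libraries labelled male, so its transcripts went against its sex label. The wild-type libraries after ACTH also held some transcripts of the other sex, with Ddx3y at 13.3 CPM in the one labelled female (at most 3.52 CPM in the others labelled female) and Xist at 31.8 CPM in the one labelled male (4.05 and 5.98 CPM in the knockouts labelled male). The untreated wild-type library labelled male held kidney markers at 1200 CPM in sum (at most 12.1 CPM elsewhere). Liver markers reached 58960 CPM in sum in the wild-type library labelled female after ACTH (at most 651 CPM elsewhere). Markers of the adrenal cortex summed to 27092 to 45727 CPM in wild type and 38598 to 52039 CPM in knockout, and all 8 listed markers were detected. Chromaffin medulla markers summed to 2027 to 4035 CPM in wild type and to 7442, 6075, 6424 and 1813 CPM in knockout. Markers of the X-zone, an inner cortical zone, summed to 7375 to 14934 CPM in wild type and 940 to 8917 CPM in knockout, and all 4 had negative log2 fold changes (median −2.29). Markers of the zona glomerulosa, which makes aldosterone, summed to 445 to 813 CPM in wild type and 807 to 1339 CPM in knockout, and all 5 had positive log2 fold changes (median 1.23). None of these 16 markers passed in edgeR, and their part in the NR4A values was not tested. In whole glands, a change in the number of cells of a type and a change in RNA per cell cannot be told apart.

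Nr4a1 is the family member with the highest level per transcript length in each of the 8 libraries. In RefSeq it lies on the plus strand of chromosome 15 (GRCm38.p6, 101253902 to 101274795). In the libraries labelled male and female it was measured at 561 and 241 CPM in untreated wild type, and at 467 and 632 CPM in wild type after ACTH. In the knockout it was measured at 1513 and 694 CPM without treatment, and at 1882 and 1691 CPM after ACTH. All 4 knockout libraries lay above all 4 wild-type libraries, the closest being 632 CPM in wild type and 694 CPM in knockout. Of the genes tested, 4.21% met this pattern. The mean was 475 ± 170 CPM (SD, n = 4) in wild type and 1445 ± 523 CPM (SD, n = 4) in knockout, a ratio of 3.04. The ratio of knockout to wild type within the pairs of matched labels was 2.70 and 2.88 without treatment and 4.03 and 2.68 after ACTH.

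Nr4a2 was the lowest of the 3 in untreated wild type and had the widest range as a ratio of the highest to the lowest library (81.8, against 7.81 for Nr4a1 and 29.6 for Nr4a3). It lies on the minus strand of chromosome 2 (57106830 to 57124003). In the libraries labelled male and female it was measured at 6.82 and 12.0 CPM in untreated wild type, and at 157 and 156 CPM in wild type after ACTH. Knockout libraries had 115 and 12.1 CPM without treatment, and at 239 and 558 CPM after ACTH. All 4 ACTH libraries lay above all 4 untreated libraries, as they did for 2.1% of the genes tested. Among the untreated libraries, the knockout labelled male stood apart from the other 3, which lay between 6.82 and 12.1 CPM. The mean was 36.6 ± 52.6 CPM (SD, n = 4) in untreated glands and 277 ± 191 CPM (SD, n = 4) after ACTH, a ratio of 7.58.

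Nr4a3 lies on the plus strand of chromosome 4 (48045078 to 48086447). In the libraries labelled male and female it was measured at 38.7 and 78.5 CPM in untreated wild type, and at 419 and 434 CPM in wild type after ACTH. Knockout libraries had 285 and 84.7 CPM without treatment, and at 375 and 1146 CPM after ACTH. As for Nr4a2, all 4 ACTH libraries lay above all 4 untreated libraries, and the untreated knockout labelled male was the highest of the untreated libraries. The mean was 122 ± 111 CPM (SD, n = 4) in untreated glands and 594 ± 369 CPM (SD, n = 4) after ACTH, a ratio of 4.88.

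**Figure D1:**
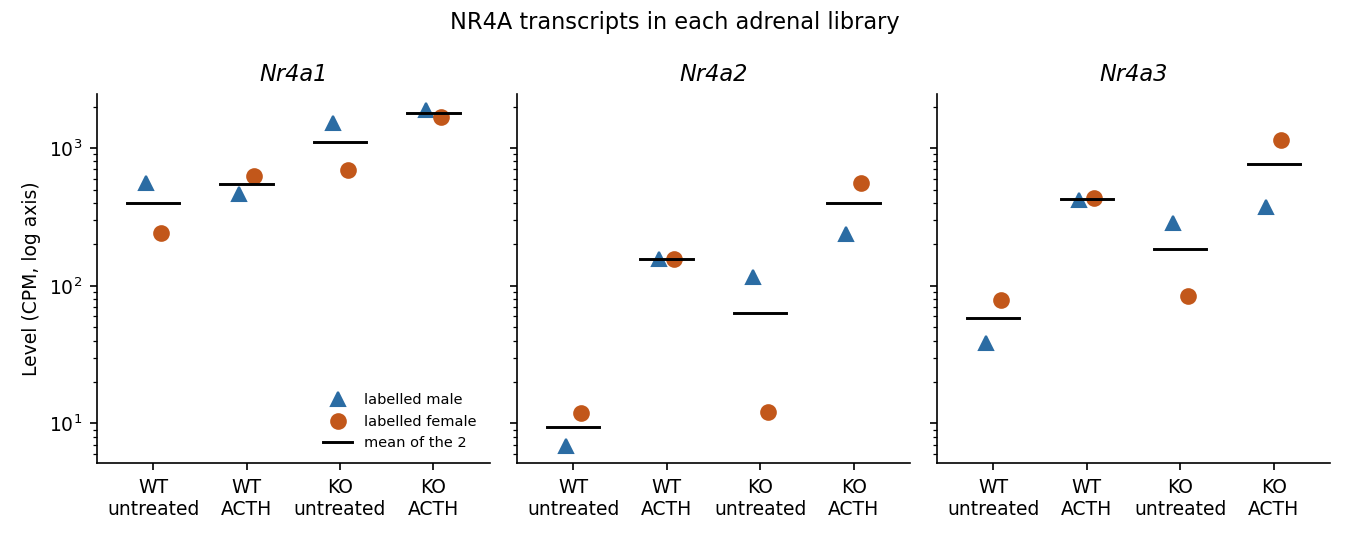
Level of Nr4a1, Nr4a2 and Nr4a3 in each library (CPM, log axis) by genotype and treatment; triangles and circles are the libraries labelled male and female, and lines are the means of the 2 libraries of a group. Nr4a1 separates by genotype, with all knockout libraries at 694 CPM or more, and Nr4a2 and Nr4a3 separate by treatment, with all ACTH libraries at 156 and 375 CPM or more.

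The promoters of the members are shown because ACTH signals through cyclic AMP, and TGACG (or CGTCA on the other strand) is the core of the element bound by the cyclic AMP response factor CREB. The windows come from the RefSeq promoter table (GRCm38.p6), 5′ to 3′ on the strand of the gene, with TGACG and CGTCA in capitals. They are chr15:101266596-101266845 (plus strand) for Nr4a1, chr2:57124004-57124253 (minus strand) for Nr4a2, and chr4:48045055-48045152 (plus strand) for Nr4a3. For Nr4a1 and Nr4a2 they end just before the start that the table uses. For Nr4a3 the window ends 152 bases short of that start, just before the transcript NM_015743, which holds the counts of the gene and begins upstream of it.
Nr4a1: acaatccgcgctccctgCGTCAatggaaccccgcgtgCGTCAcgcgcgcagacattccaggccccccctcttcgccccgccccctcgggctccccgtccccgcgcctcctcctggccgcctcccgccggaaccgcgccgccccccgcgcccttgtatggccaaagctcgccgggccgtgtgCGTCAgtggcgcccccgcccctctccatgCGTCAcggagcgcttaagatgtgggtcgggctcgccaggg
Nr4a2: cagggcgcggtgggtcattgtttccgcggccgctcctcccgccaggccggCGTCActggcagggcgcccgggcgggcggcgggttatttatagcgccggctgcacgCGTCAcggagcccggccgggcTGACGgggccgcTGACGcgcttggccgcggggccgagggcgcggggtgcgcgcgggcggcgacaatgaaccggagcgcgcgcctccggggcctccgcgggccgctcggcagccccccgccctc
Nr4a3: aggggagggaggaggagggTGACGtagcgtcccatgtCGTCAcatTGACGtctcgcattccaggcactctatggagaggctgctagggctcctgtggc
Over the 250 bases before the table's start, on both strands, each of the 3 genes holds 4 matches. For Nr4a3, 3 of them precede NM_015743 and 1 lies inside it. Counted from the table's start, the leftmost bases of the matches lie at −233, −213, −69 and −40 in Nr4a1, at −200, −144, −123 and −111 in Nr4a2, and at −231, −213, −205 and −147 in Nr4a3. Counted from the start of NM_015743, the first 3 of Nr4a3 lie at −79, −61 and −53, and the last begins 5 bases past that start. Of 32817 promoter windows of this length, 17.7% hold at least 1 match and 0.137% hold 4 or more. Among the 9171 windows with a GC content of at least 60%, which includes these 3, the shares are 27.1% and 0.371%. The full palindrome TGACGTCA was found in none of the 3 windows (1.55% of all windows hold it). AAAGGTCA, the element to which NR4A receptors bind as monomers, was also found in none of them (1.34%). TATAAA was found once, in Nr4a2, at −164 (12.4% of all windows and 2.58% of those with a GC content of at least 60%). It reads on the strand opposite to the gene. A site for the factor MEF2 was found in the same window at −167 (2.92% and 0.567%). The TATAAA match and the MEF2 site overlap, so they are not separate stretches. A match describes these letters and shows no binding.

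Knockout and wild type were compared in 1 model of all 8 libraries with treatment and sex label as covariates, using the quasi-likelihood test of edgeR. The log2 fold change (knockout over wild type) was 1.56 for Nr4a1 (SE 0.28, adjusted p = 0.102 in edgeR), with a 95% interval of 0.91 to 2.21. It was 1.96 for Nr4a2 (SE 0.68, adjusted p = 0.270 in edgeR) and 1.25 for Nr4a3 (SE 0.50, adjusted p = 0.337 in edgeR). None of the 3 passed an adjusted p of 0.05 over all genes, a threshold passed by 0.026% of the genes tested. All 3 were higher at an unadjusted p under 0.05, as were 5.33% of all genes. Nr4a1 was the member whose 4 knockout libraries did not overlap with the 4 wild-type libraries, a pattern that 4.21% of genes met. The call for Nr4a1 depended on the tool: it passed in DESeq2 (adjusted p = 6.68e-07), which called 2.22% of genes higher, and in limma-voom (adjusted p = 0.0331), which called 0.332% higher. Its adjusted p ranged up to 0.266 over the alternatives.

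The differences of Nr4a2 and Nr4a3 between genotypes rested largely on the untreated knockout library labelled male. Without it, the log2 fold change was 0.80 for Nr4a2 and 0.43 for Nr4a3. Within the pairs of matched labels, the ratio of knockout to wild type for Nr4a2 was 16.9 (labelled male) and 1.01 (labelled female) without treatment, and 1.52 and 3.59 after ACTH. For Nr4a3 the ratios were 7.37, 1.08, 0.896 and 2.64 in the same order. The pair with the ratios 16.9 and 7.37 includes the wild-type library whose transcripts went against its sex label.

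ACTH and no treatment were compared in the same model. The log2 fold change (ACTH over untreated) was 3.43 for Nr4a2 (SE 0.73, adjusted p = 0.627 in edgeR), with a 95% interval of 1.74 to 5.12. It was 2.43 for Nr4a3 (SE 0.53, adjusted p = 0.627 in edgeR), with an interval of 1.21 to 3.66. For Nr4a1 it was 0.69 (SE 0.28, adjusted p = 0.786 in edgeR), with an interval of 0.03 to 1.35. None of the 3 passed the adjusted threshold, which 0.0195% of genes passed. All 3 were higher at an unadjusted p under 0.05, as were 3.49% of genes. By unadjusted p, Nr4a2 ranked 39 and Nr4a3 ranked 44 of 15361 genes. For both, all 4 ACTH libraries lay above all 4 untreated ones, as they did for 2.1% of genes.

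These values also depended on the tool and on 1 library. DESeq2 called Nr4a2 (adjusted p = 0.00612) and Nr4a3 (adjusted p = 0.0179) in this comparison, in which it called 0.603% of genes higher. Over the alternatives the adjusted p of both ranged up to 1.00. Without the untreated knockout library labelled male, Nr4a2 had a log2 fold change of 4.57 (adjusted p = 0.0235 in edgeR) and Nr4a3 of 3.19 (adjusted p = 0.0451 in edgeR). Within the pairs of matched labels, the ratio of ACTH to untreated for Nr4a2 was 23.1 and 12.98 in wild type and 2.07 and 46.1 in the knockout (labelled male first). For Nr4a3 the ratios were 10.8, 5.53, 1.32 and 13.5, and for Nr4a1 they were 0.833, 2.62, 1.24 and 2.44. The low ratios in the knockout pair labelled male go with high levels in its untreated library. For Nr4a3, the ACTH library of this pair was also the lowest of the ACTH libraries, at 375 CPM.

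Whether the response to ACTH differed between genotypes was tested with an interaction term. Its estimate was 0.18 for Nr4a1 (95% interval −1.24 to 1.60), −1.29 for Nr4a2 (−4.64 to 2.06) and −1.01 for Nr4a3 (−3.52 to 1.50). The adjusted p was 1.00 for each in edgeR, and 0% of genes passed (283 of 15361 genes had an unadjusted p under 0.05, and DESeq2 called 8 genes). These intervals are wide, so a difference in response of several fold in either direction was not detectable for Nr4a2 or Nr4a3.

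Within each condition, groups of 2 animals were compared. In untreated glands the log2 fold change of knockout over wild type was 1.47 for Nr4a1 (adjusted p = 0.892 in edgeR), 2.67 for Nr4a2 and 1.77 for Nr4a3, and 0% of genes passed. With the male-labelled untreated knockout left out, the values of Nr4a2 and Nr4a3 were 0.075 and 0.16, and without the one labelled female they were 4.001 and 2.81. After ACTH it was 1.65 for Nr4a1 (adjusted p = 0.473 in edgeR), 1.38 for Nr4a2 and 0.77 for Nr4a3, and 0.00651% of genes passed. DESeq2 called Nr4a1 after ACTH (adjusted p = 0.00654), as it did 1.04% of genes in that direction, and over the alternatives the adjusted p ranged up to 0.670. With the female-labelled knockout after ACTH left out, the values of Nr4a2 and Nr4a3 were 0.19 and −0.31, and without the one labelled male they were 2.13 and 1.51.

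In wild type, ACTH over untreated was 4.02 for Nr4a2, 2.91 for Nr4a3 and 0.60 for Nr4a1 on the log2 scale (adjusted p = 1.00 for each in edgeR), and 0% of genes passed. In the knockout the values were 2.73, 1.90 and 0.78 (adjusted p = 0.999 for each in edgeR), and 0% of genes passed. With the male-labelled untreated knockout left out, the values of Nr4a2 and Nr4a3 were 5.28 and 3.45, and without the one labelled female they were 1.35 and 0.80. Leaving out the female-labelled knockout after ACTH, they were 1.82 and 0.97. Counts at an unadjusted p under 0.05 were 743 genes for genotype without treatment, 393 for ACTH in wild type and 649 for ACTH in the knockout. DESeq2 called 111, 37 and 98 genes in these comparisons. The value for Nr4a1 in wild type was −0.07 without the ACTH library labelled female. Between the sex labels, the log2 fold change (female over male) was −0.52 for Nr4a1, −0.42 for Nr4a2 and 0.10 for Nr4a3, none of which passed in edgeR (0.026% of genes passed). The label of 1 library is at odds with its transcripts, which limits that comparison. This mismatch also limits every fit with the sex label as a covariate and every matched pair that holds this library. Both untreated wild-type libraries had high Xist (388 and 507 CPM), so comparisons with that group are not balanced for sex by transcripts. No fit took sex from the transcripts. With no sex covariate, the log2 fold change was 1.58 for Nr4a1 by genotype, and 3.33 and 2.45 for Nr4a2 and Nr4a3 by treatment.

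**Figure D2:**
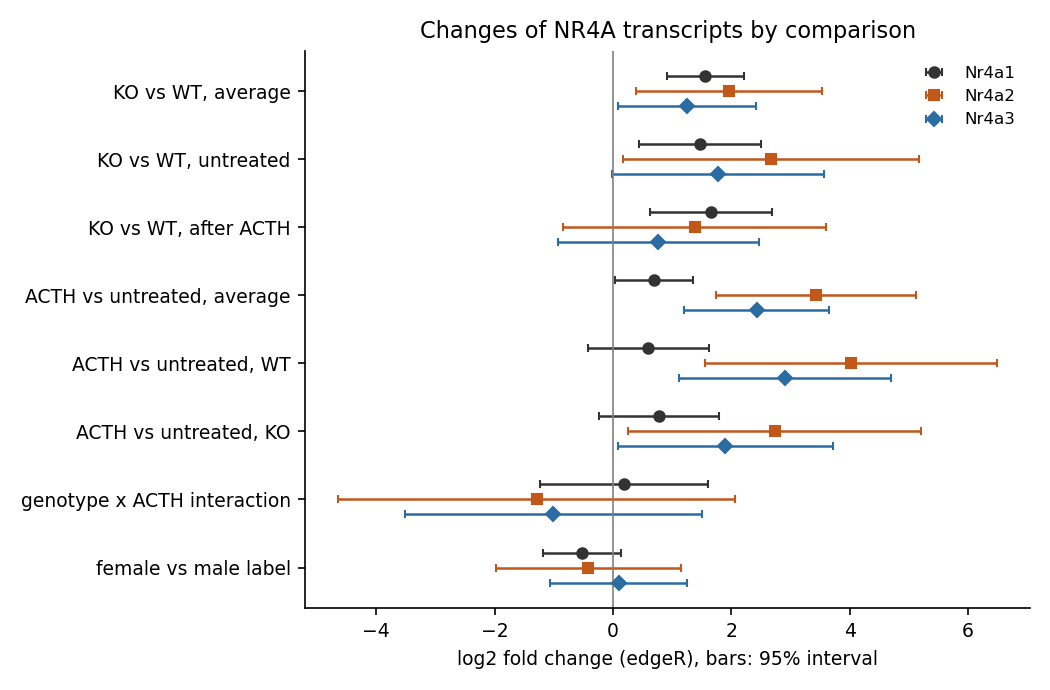
Log2 fold change of the 3 members in each comparison (edgeR), with bars for the 95% interval. In both average comparisons the intervals of all 3 members lie above 0, though none passed the adjusted threshold. They include Nr4a1 for knockout over wild type (0.91 to 2.21) and Nr4a2 for ACTH over untreated (1.74 to 5.12). The one nearest 0 is that of Nr4a1 for ACTH over untreated (0.03 to 1.35). Those of the interaction span 0 for all 3 members.

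The makeup of the family by level per length was compared with the RPKM values of the authors (reads scaled by transcript length and library total), summed per gene. The sum over the 3 members in the libraries labelled male and female was 212 and 101 RPKM in untreated wild type and 269 and 294 RPKM in wild type after ACTH. In the knockout it was 578 and 258 RPKM without treatment, and 747 and 915 RPKM after ACTH. Nr4a1 made up 84.4% to 96.1% of this sum in untreated glands and 59.9% to 84.0% after ACTH. The share of Nr4a2 was 0.953% to 5.37% in untreated glands and 8.59% to 17.0% after ACTH, again with no overlap. The share of Nr4a3 was 2.95% to 12.2% and 7.44% to 23.9%, which overlap. The shares in a library add up to the whole, so those of Nr4a1 and Nr4a2 are not separate results. These splits were not tested.

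**Figure D3:**
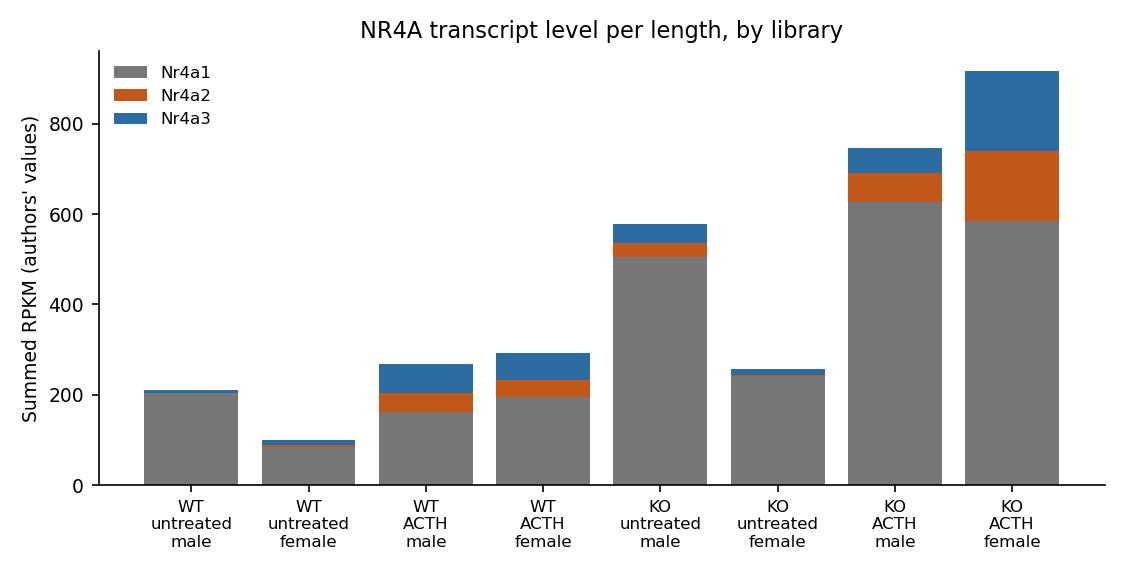
Summed RPKM of the 3 members in each library (bars from 0, authors' values), with each member as a segment. The sum ranges from 101 RPKM in untreated wild type labelled female to 915 RPKM in the ACTH-treated knockout labelled female, and Nr4a1 is the largest segment in all 8 bars.

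Ratios between members within a library do not depend on how libraries are scaled. The mean log2 ratio of the counts of Nr4a2 to Nr4a1 was −5.06 ± 1.24 (SD, n = 4) in untreated glands and −2.04 ± 0.66 (SD, n = 4) after ACTH. The difference of 3.01 had p = 0.0286 in a two-sided exact permutation test, the smallest p that 4 libraries against 4 allow, and an adjusted p of 0.171 over the 6 ratio tests. For Nr4a3 to Nr4a1 the difference was 1.83 (exact permutation p = 0.0571, adjusted p = 0.171), and for Nr4a3 to Nr4a2 it was −1.18 (exact permutation p = 0.0857, adjusted p = 0.171). Between genotypes the 3 differences were 0.03, −0.54 and −0.57 (lowest exact permutation p = 0.286, adjusted p = 0.429). After adjustment none of the 6 passed. A single ratio at the smallest possible p has an adjusted p of 0.171 over 6 permutation tests, so it cannot pass by itself. These tests therefore cannot show that a ratio stayed the same.

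At the level of transcripts, Nr4a1 has 1 row in the tables, NM_010444, with 7 exons and 2477 bases (chromosome 15, 101266846 to 101274795). Nr4a2 has 2, NM_001139509 and NM_013613, whose starts lie 8965 bases apart. NM_001139509, which starts beside the promoter shown, took 91.0% and 37.3% of the counts of the gene in untreated wild type labelled male and female, and 62.6% and 61.7% after ACTH. In the knockout it took 67.7% and 91.0% without treatment and 68.6% and 72.2% after ACTH. The range is wide in the untreated libraries, where the gene had as few as 58 counts, and the split is the estimate of the authors' software. Of the 2 rows of Nr4a3, NM_015743 holds the counts and NM_001307989 is listed at or next to 0 in all 8 libraries.

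Among the 47 nuclear receptors listed, Nr4a1 had the highest mean level per length, 325 RPKM. Nr5a1 (steroidogenic factor 1, which specifies steroidogenic cells) followed at 145 RPKM, Nr4a3 at 53.7 RPKM, Nr4a2 at 42.7 RPKM and Pparg at 33.2 RPKM. Nr4a1 ranked 1 or 2 in every library. Nr4a2 ranked 30 to 38 in 3 untreated libraries, 5 in the untreated knockout labelled male, and 3 or 4 after ACTH. Nr4a3 ranked 16 to 25 in the same 3 untreated libraries, 3 in the untreated knockout labelled male, and 2 to 5 after ACTH. Of the other receptors, 40 were tested and none passed in edgeR for genotype or treatment. Their median log2 fold changes were −0.30 and −0.03, against −0.04 and 0.02 for all genes. For genotype 30 of the 40 were negative. At an unadjusted p under 0.05, 8 were lower in the knockout and none higher, against 8.11% and 5.33% of all genes. DESeq2 called 2 lower and none higher (3.97% and 2.22%). The wild-type libraries with kidney and liver markers had Hnf4a at 25.4 and 31.6 RPKM, against at most 0.671 RPKM elsewhere. The part of these neighbouring tissues in the counts for genotype was not tested. For treatment, 2 receptors were higher and 3 lower at an unadjusted p under 0.05 (3.49% and 2.62%). DESeq2 called 1 higher and 1 lower for treatment (0.603% of genes were called higher). Nr5a1 had a log2 fold change of 0.07 (SE 0.16) for genotype, which did not pass.

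**Figure D4:**
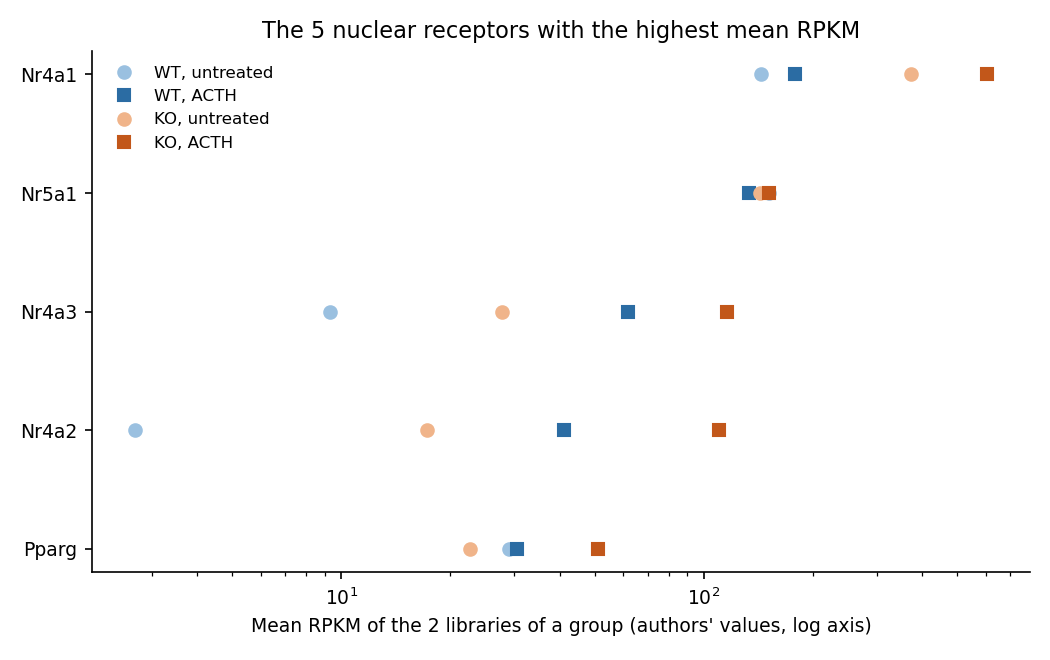
Mean RPKM of the 2 libraries of each group (log axis) for the 5 nuclear receptors with the highest mean, one row each. Nr4a1 leads at a mean of 325 RPKM over all libraries, and Nr4a2 and Nr4a3 have a wide spread between groups next to that of Nr5a1.

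Upstream of the family, 42 genes of cyclic AMP and calcium signalling were tested, from the ACTH receptor Mc2r through adenylyl cyclases and protein kinase A to CREB, its coactivators and MEF2. None passed in edgeR for genotype or treatment, with median log2 fold changes of 0.17 and 0.13. At an unadjusted p under 0.05, 9 were higher and 2 lower in the knockout, against 5.33% and 8.11% of all genes, and DESeq2 called 6 higher and 1 lower, against 2.22% and 3.97% of all genes. For treatment, 3 were higher and 2 lower at an unadjusted p under 0.05 (3.49% and 2.62% of all genes), and DESeq2 called 2 higher (0.603%). Gnas, which encodes the stimulatory G protein subunit that couples the ACTH receptor to adenylyl cyclase, had a log2 fold change of 0.36 (SE 0.14) for genotype. Prkar2b, a regulatory subunit of protein kinase A, had 0.55 (SE 0.20).

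Of 17 partners and coregulators of NR4A proteins, such as the retinoid X receptors and the corepressor Ncor1, none passed in edgeR, and the medians were 0.01 for genotype and 0.16 for treatment. At an unadjusted p under 0.05, 2 were lower in the knockout and none higher, against 8.11% and 5.33% of all genes. DESeq2 called none. Ncor1 had a log2 fold change of −0.01 (SE 0.18) for genotype.

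Of 19 genes described elsewhere as NR4A targets, 16 were tested and none passed in edgeR, with medians of 0.62 for genotype and 0.08 for treatment. At an unadjusted p under 0.05, 5 were higher and 5 lower in the knockout (5.33% and 8.11% of all genes), and DESeq2 called 4 in each direction (2.22% and 3.97%). For treatment, none was higher and 1 was lower at an unadjusted p under 0.05 (3.49% and 2.62% of all genes), and DESeq2 called none. Star, which moves cholesterol into mitochondria, had a log2 fold change of 0.10 (SE 0.22) for genotype. Hsd3b1, an enzyme of steroid synthesis, had 0.58 (SE 0.20). Star, Hsd3b1 and Cyp21a1 of this list are also among the adrenal cortex markers above. Akr1c18 is also an X-zone marker, Th a chromaffin medulla marker and Cyp11b2 a zona glomerulosa marker. The part of tissue makeup in the counts of this list was not tested.

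The other early response genes, 19 in number and all tested, had median log2 fold changes of 1.21 for genotype and 0.92 for treatment. For genotype 17 of 19 were positive, and for treatment 16 of 19. In edgeR 1 passed for genotype and none for treatment (0.026% and 0.0195% of all genes). At an unadjusted p under 0.05, 11 were higher for genotype and 8 for treatment (5.33% and 3.49% of all genes), with none lower. DESeq2 called 8 and 4 higher (2.22% and 0.603%). The summed level of the list in the libraries labelled male and female was 1062 and 855 CPM in untreated wild type and 1524 and 1416 CPM in wild type after ACTH. In the knockout it was 2791 and 1777 CPM without treatment and 2946 and 3150 CPM after ACTH. All 4 knockout libraries lay above all 4 of wild type, a pattern that 4.21% of single genes met. This separation of the sums rests on Rgs2, described below. In the untreated knockout labelled female, Rgs2 made up 1159 of the 1777 CPM. In wild type labelled male after ACTH, it made up 413 of the 1524 CPM.

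The gene that passed was Rgs2, a regulator of G protein signalling. It was measured at 439 and 423 CPM in untreated wild type, and at 413 and 435 CPM in wild type after ACTH. In the knockout it was measured at 1405 and 1159 CPM without treatment and at 1062 and 1059 CPM after ACTH. Its log2 fold change for genotype was 1.45 (SE 0.14, adjusted p = 0.0381 in edgeR), and for treatment −0.15 (SE 0.14). With the kidney-bearing and the liver-bearing wild-type libraries both left out, none of the 19 passed. Crem, a cyclic AMP responsive factor that also stands in the upstream list, had a log2 fold change of 1.68 (SE 0.56) for treatment, which did not pass.

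The genes with the pattern most like each member were taken by the Pearson correlation of log2 CPM over the 8 libraries, among 12342 genes. These values are descriptions, since the libraries share genotype, treatment and tissue makeup. For Nr4a1 they were Rps2 (0.975), Cct6a (0.970), Rpsa (0.960), Nemf (0.959) and Ythdf2 (0.955). Rps2 and Rpsa encode ribosomal proteins with many near-identical copies in the genome, so their counts are uncertain. For Nr4a2 they were Plk3 (0.982), Dnajb4 (0.973), Zdbf2 (0.970), Txndc11 (0.962) and Klf4 (0.961). For Nr4a3 they were Txndc11 (0.984), Fam53c (0.982), Dnajb4 (0.979), Zdbf2 (0.976) and Fosb (0.968). Nr4a2 and Nr4a3 share Txndc11, Dnajb4 and Zdbf2, and neither shares a gene with Nr4a1. Plk3, a stress-responsive kinase, was measured at 2.92 to 3.18 CPM in the 3 untreated libraries with low Nr4a2, at 15.9 CPM in the untreated knockout labelled male, and at 22.7 to 36.9 CPM after ACTH.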

How the data were processed

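Libraries of adrenal gland RNA were made with a directional kit and sequenced as single reads of 75 bases, per the labels' protocols. The submitters' processing notes name FastQC (0.11), Bowtie2 (2.2.5.0), TopHat2 (2.0.13) and Partek (6.6), with mm10 as the build. Per the file headers, the authors deposited 1 row per RefSeq transcript with its estimated count and its RPKM. The sources used here do not say how strand and reads with several matches were handled.

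Estimated counts of 28678 transcripts were summed per symbol to 18846 genes and rounded. Totals ranged from 8020111 to 29568950 per library. Genes were kept by filterByExpr (minimum count 10; 3485 removed) and scaled by TMM. edgeR 4.0.16 (R 4.3.3) was used for quasi-likelihood tests with Benjamini-Hochberg adjustment over all 15361 genes, in an additive model (genotype, treatment, sex label; 4 residual degrees of freedom) and in one with the interaction (3). Ratios between members used counts with a prior of 0.5. p-values measure the spread between these animals. The 2 libraries of each group differed by more than sampling noise. Scripts were tested on simulated data.

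Alternatives were RLE factors, no filter, DESeq2 (1.42.0), limma-voom (limma 3.58.1), no sex covariate, an interaction in the model, each library left out, 2 wild-type libraries left out, genes confined to 1 library left out, RPKM with a pseudocount of 0.1, and transcript rows. The members and gene lists were chosen with earlier results of these data known. Named genes were the members, called list genes (up to 4 in each direction) or else the 2 with the highest mean CPM of each list, and the 5 genes most like each member; 1 gene named by this rule is not reported here. The edgeR test was fitted as planned.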

Additional observations from a re-analysis of the deposited data

Results flagged for a closer look

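In 28 groups of 4 libraries (members' levels, their shares of the family's RPKM and that summed RPKM, within a genotype or a treatment), 3 held a library whose gap to its nearest neighbour took up more of the group's range than Dixon's test allows at the 95% level. Chance alone flags about 1 group in 20 where the 4 values come from 1 normal distribution. These groups mix genotypes or treatments and share libraries, so that rate need not hold here. Nr4a2 in the untreated knockout library labelled male, at 115 CPM, stood above the other untreated libraries, with a gap of 0.951 of the range. Nr4a3 in the ACTH-treated knockout library labelled female, at 1146 CPM, stood above the other ACTH libraries, with a gap of 0.924. In the same library Nr4a3 made up 19.2% of the family's RPKM, above the other knockout libraries, with a gap of 0.833. The untreated knockout library labelled male also had a summed early response level of 2791 CPM, against 855 to 1777 CPM in the other untreated libraries. The part of handling or of tissue makeup in these values was not tested.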

How the results depend on the processing

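With DESeq2 the log2 fold change was 1.55 for Nr4a1 by genotype, 1.66 for Nr4a1 by genotype after ACTH, 3.45 for Nr4a2 and 2.44 for Nr4a3 by treatment, all past the threshold. With limma-voom Nr4a1 by genotype was 1.62 and passed. Leaving out 1 library at a time gave 1.34 to 1.79 for Nr4a1 by genotype, 3.03 to 4.57 for Nr4a2 and 2.15 to 3.19 for Nr4a3 by treatment. These 3 kept their sign. The interaction did not: it ranged from −0.35 to 0.90 for Nr4a1, −2.80 to 1.12 for Nr4a2 and −2.22 to 0.42 for Nr4a3. Nor did Nr4a1 by treatment in wild type (−0.071 to 1.19), Nr4a3 by genotype after ACTH (−0.31 to 1.51) or the log2 ratio of Nr4a2 to Nr4a1 by genotype (−0.89 to 0.80). Leaving out 1 of 2 libraries leaves a lone library assumed to vary like the other groups. Genes called numbered 4 by genotype and 3 by treatment in edgeR, 932 and 123 in DESeq2, 108 and 3 in limma-voom, 41 and 8 with no filter, 1 and 0 with no sex covariate, and, with 1 library left out, 0 to 253 and 0 to 23. The cause was not tested. The labels give no replicate numbers; libraries were matched by sex label, a covariate of the models. With 2 animals per group and as few as 58 counts of Nr4a2 in a library, within-group differences are imprecise.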

Other observations

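Angiotensin II also induces NR4A genes in the adrenal cortex. The transcripts of its type 1 receptors and of aldosterone synthase varied across the same libraries, and its part in the NR4A values was not tested. Agtr1a, the main type 1 receptor, was measured at 88.7, 170, 220 and 122 CPM in the 4 wild-type libraries and at 436, 180, 411 and 373 CPM in the 4 knockout libraries (untreated labelled male and female, then ACTH). Agtr1b, the other type 1 receptor, was at 14.9, 20.1, 9.55 and 5.35 CPM in wild type, in the same order. In knockout Agtr1b was at 53.6, 21.9, 23.6 and 17.6 CPM. Cyp11b2, aldosterone synthase, was measured at 14.2, 11.3, 19.6 and 12.6 CPM in wild type and at 44.6, 13.9, 78.2 and 28.9 CPM in knockout, in the same order. The untreated knockout library labelled female overlapped with wild type for Agtr1a and Cyp11b2. For Agtr1b, the ACTH-treated knockout library labelled female did. None of these genes was called by edgeR in the comparison of genotypes. These genes were chosen after their values were seen.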
